A study of Mus musculus with 23 samples.

Results

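The genes described here encode the folding, modification and quality control machinery of the endoplasmic reticulum (ER). They are 36 of 47643 gene identifiers in the deposited tables, and each was found by its gene symbol. The list was written by hand from known roles, and Txndc5 and Fkbp2 were chosen by their own values, since both had been seen higher where IL-38 was inhibited. Their values are therefore given as a description without a test, and member counts are given over the other 34 genes. Those 34 and the gene lists used below were chosen with earlier results of these data known. Counts over them, beside the shares over all genes, are therefore a description too. All 36 passed the filter on low values in every comparison, a mean normalized count of at least 5, with 29 to 33758 reads per member and library.

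The libraries came from mammary tumors of female mice carrying the polyoma middle T oncogene (PyMT), a transgene that all groups shared, on a C57BL/6 background. IL-38 is a cytokine of the IL-1 family that limits inflammatory responses. In all, 5 groups were sequenced, with 23 libraries. PyMT WT mice received a human IgG1 isotype control (isotype IgG1, n = 5) or an antibody that neutralizes IL-38 (anti-IL-38, n = 6) once a week for 5 weeks, starting when the first tumor measured 0.6 cm. In the other experiment, PyMT WT mice (WT + IgG, n = 4) and PyMT mice carrying an IL-38 knockout (IL-38 KO + IgG, n = 4) received polyclonal hamster IgG once a week for 5 weeks from 13 weeks of age, and further IL-38 KO mice received an antibody to the γδ T-cell receptor (IL-38 KO + anti-γδTCR, n = 4) on the same schedule. PyMT WT mice given the γδTCR antibody were not analysed here. The libraries hold bulk RNA of dissociated tumors, so fewer cells of a type and less RNA per cell cannot be told apart.

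Secreted and membrane proteins enter the ER through the Sec61 channel. Inside, Hspa5 (BiP) and other chaperones hold unfolded chains, disulfide isomerases form and reshuffle cysteine bonds, and prolyl isomerases of the FKBP and cyclophilin families turn proline bonds. Chains that fail to fold are passed back to the cytosol for degradation (ERAD), and unfolded protein in the ER activates the sensors Ern1 (IRE1), Eif2ak3 (PERK) and Atf6, which raise the transcription of many of these genes. Milk-producing mammary epithelium, fibroblasts that make collagen and antibody-secreting plasma cells all depend heavily on this machinery.

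Sequencing depth ranged from 6273049 to 15879164 reads per library. Il1f10, which encodes IL-38, had 0 reads in all 23 libraries, which allows up to 0.189 to 0.478 CPM depending on the library (3 reads, counting error only), so its loss could not be checked in these files. Luminal epithelial genes were present in every group. The 4 IL-38 KO + anti-γδTCR libraries and IL-38 KO + IgG replicate 4 stood apart from the other 18, with 1.31 to 1.98% of reads on processed pseudogenes against 0.0943 to 0.191%. They also had 11.3 to 20.1% of reads on the gene Gm42418, against 2.62 to 5.70%. Their depth was 6273049 to 8794202 reads, against 10138353 to 15879164. Replicate 4 of IL-38 KO + IgG also had a plasma cell gene sum of 8116 normalized counts where its group's next highest had 1179. For the knockout, the median and the counts of members above 0 and higher at an unadjusted p are also given without that library. Values of single genes, gene lists and cell type genes in the knockout include it. For the γδTCR antibody, the adjusted limma calls and the median are also given without it.

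The genes that defined the question were higher in both experiments. Txndc5, a thioredoxin-domain disulfide isomerase also called ERp46, had normalized counts of 194, 148, 354, 209 and 278 in the isotype IgG1 tumors. In the anti-IL-38 tumors it ranged from 311 to 733 with a median of 411. Only the highest isotype tumor reached into the anti-IL-38 range. In the genotype experiment the WT + IgG tumors had 218, 216, 386 and 365 and the IL-38 KO + IgG tumors 617, 556, 518 and 488, so these groups did not overlap. The differences on the log2(normalized count + 1) scale were 0.99 ± 0.25 (SE) for the antibody and 0.93 ± 0.21 for the knockout.

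Fkbp2, a small prolyl isomerase of the ER lumen, had 247, 131, 309, 236 and 257 normalized counts in the isotype IgG1 tumors and 311 to 527 (median 402) in the anti-IL-38 tumors. The groups were separate, by a narrow margin between 309 and 311. WT + IgG tumors had 242, 222, 369 and 286 and IL-38 KO + IgG tumors 411, 477, 375 and 362, where the highest WT tumor lay inside the KO range. The log2 differences were 0.82 ± 0.21 for the antibody and 0.55 ± 0.18 for the knockout.

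**Figure D1:**
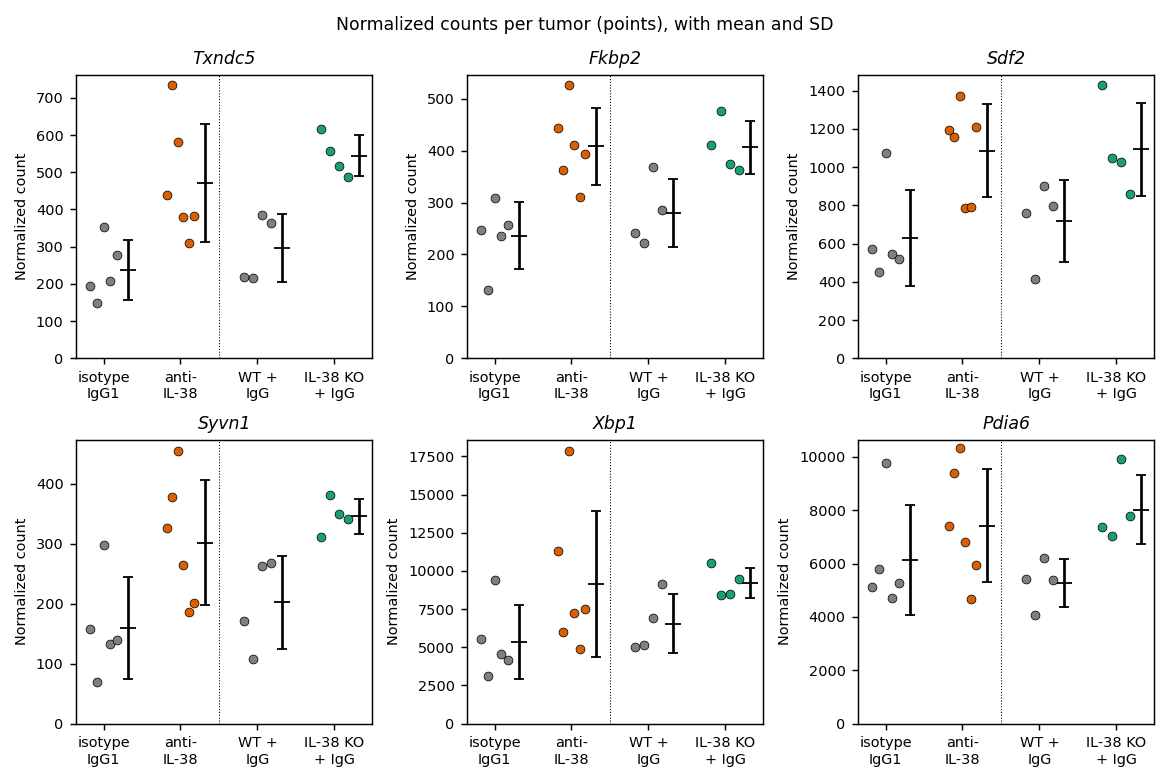
Normalized counts of Txndc5, Fkbp2, Sdf2, Syvn1, Xbp1 and Pdia6 in each of 19 tumors (vertical axes, from 0), by group (horizontal axes), with the group mean and SD as bars beside the points. Isotype IgG1 replicate 3 is the highest isotype point in all 6 genes, at 1074 for Sdf2 and 9758 for Pdia6.

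Under anti-IL-38, 31 of the other 34 members had a positive log2 difference from isotype IgG1, with a median of 0.25, where the median over all 16002 genes tested was 0.00. In limma 0 members had an adjusted p under 0.05, as had 0% of all genes. At an unadjusted p under 0.05, 7 members were higher, against 5.61% of all genes, and 0 were lower, against 4.91%. They were Sdf2, Syvn1, Pdia4, Fkbp14, Fkbp7, Dnajc3 and Xbp1. By DESeq2, 0 of the 34 were called higher (0.369% of all genes). Of the 34, 0 had every anti-IL-38 tumor above every isotype tumor (0.4% of all genes) and 0 had every one below (0.644%).

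Among the chaperones and their partners, all 12 members lay above 0. Sdf2, a relative of the chaperone cofactor Sdf2l1, had 572, 450, 1074, 546 and 518 normalized counts in the isotype IgG1 tumors and 785 to 1374 (median 1178) in the anti-IL-38 tumors. Every anti-IL-38 tumor lay above the 4 isotype tumors other than replicate 3. The log2 difference was 0.82 ± 0.22 (adjusted p = 0.376 in limma), and without isotype replicate 3 it was 1.03 (adjusted p = 0.0775). Dnajc3, a cochaperone of Hspa5 that also restrains PERK, differed by 0.45 with an interval of 0.03 to 0.87. The abundant general chaperones differed by less. Hspa5 had 20200, 24563, 30075, 16386 and 18493 in the isotype tumors and 16881 to 30151 (median 24005) in the anti-IL-38 tumors. These ranges nearly coincide, and the log2 difference was 0.08 with a 95% interval of −0.34 to 0.51. Hsp90b1 (GRP94), Calr (calreticulin), Canx (calnexin), Hyou1, Dnajb9, Dnajb11, Sdf2l1, Manf and Creld2 differed by 0.15 to 0.47, with intervals that all included 0.

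Of the 7 disulfide isomerases and oxidases other than Txndc5, 6 lay above 0 and 1, Pdia4, had an unadjusted p under 0.05. Pdia4 (ERp72) had 495, 636, 704, 720 and 827 normalized counts in the isotype IgG1 tumors and 592 to 1741 (median 942) in the anti-IL-38 tumors. All but 1 of the anti-IL-38 tumors lay above the highest isotype tumor. Its log2 difference was 0.58 ± 0.22 (adjusted p = 0.432 in limma). Pdia3, Pdia5, Pdia6 and P4hb, the isomerase that is also the beta subunit of collagen prolyl hydroxylase, differed by 0.10 to 0.32. Ero1l, the oxidase that recharges disulfide isomerases and responds to hypoxia, was the member with the lowest value, −0.57 with an interval of −1.26 to 0.12, while its relative Ero1lb was at 0.05.

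Of the prolyl isomerases, Fkbp14 and Fkbp7 were in the unadjusted count. Fkbp14, which acts on collagen chains, had 142, 120, 178, 162 and 87.7 normalized counts under isotype IgG1 and 154 to 352 (median 183) under anti-IL-38, a log2 difference of 0.62 ± 0.24 (adjusted p = 0.432 in limma). Fkbp7 had 199, 113, 153, 173 and 71.5 under isotype IgG1 and 146 to 413 (median 210) under anti-IL-38, a log2 difference of 0.70 ± 0.31 (adjusted p = 0.456 in limma). In both genes anti-IL-38 replicate 2 was the highest tumor and isotype replicate 5 the lowest. Anti-IL-38 replicate 2 also had the highest fibroblast gene sum of its group, 60813 normalized counts, where the next anti-IL-38 tumor had 57797. Over 19 tumors with group means removed, r with the mean of the fibroblast genes was 0.41 for Fkbp14 and 0.665 for Fkbp7. Neither passed the adjustment (permutation test, adjusted p = 0.354 and 0.109). The part of fibroblasts in the differences under the antibody was not tested. Fkbp9, Fkbp10, Fkbp11 and the cyclophilin Ppib differed by 0.05 to 0.37.

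Members that bring chains in or dispose of them were led by Syvn1 (HRD1), the ubiquitin ligase of ERAD. Its isotype IgG1 tumors had 158, 69, 298, 134 and 140 normalized counts and its anti-IL-38 tumors 186 to 454 (median 296). Again only isotype replicate 3 lay inside the anti-IL-38 range. The log2 difference was 0.99 ± 0.33 (adjusted p = 0.417 in limma). Its ERAD partner Sel1l differed by 0.26, and Herpud1, Edem1, Sec61b and Ssr1 by 0.18 to 0.46. Of the transcription factors, Xbp1, which IRE1 activates by splicing its mRNA, had 5514, 3113, 9396, 4558 and 4175 normalized counts under isotype IgG1 and 4895 to 17833 (median 7383) under anti-IL-38. Its log2 difference was 0.73 with an interval of 0.03 to 1.43. Atf4 and Ddit3 (CHOP), the transcription factors downstream of PERK, stood at −0.16 and −0.09. Counts of reads at the 3′ end do not separate spliced from unspliced Xbp1.

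The tumors of a group differed among themselves. Isotype replicate 3 lay above the isotype mean in 31 of the 34 members, with a median of 0.47 on the log2 scale, whereas the other 4 isotype tumors had medians between −0.16 and −0.09. Among the anti-IL-38 tumors the medians over the isotype mean were 0.21, 0.49, 0.69, 0.30, −0.17 and 0.03. Replicate 5 of anti-IL-38 thus lay with the low isotype tumors and replicate 3 had the highest median of the experiment. The tumors that stood highest in each group, replicate 3 of both, also had the highest sums of milk protein genes, 256191 normalized counts where the next isotype tumor had 131282, and 250756 where the next anti-IL-38 tumor had 190503. The part of milk-producing cells in the members' levels was not tested. Without isotype replicate 3, 10 members were higher at an unadjusted p under 0.05 (7.86% of all genes), and without isotype replicate 2, 3 members were (5.17%). Leaving out isotype replicate 1 gave 4 members (5.15% of all genes), leaving out isotype replicate 5 gave 3 (4.84%) and leaving out anti-IL-38 replicate 2 gave 4 (4.48%).

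**Figure D2:**
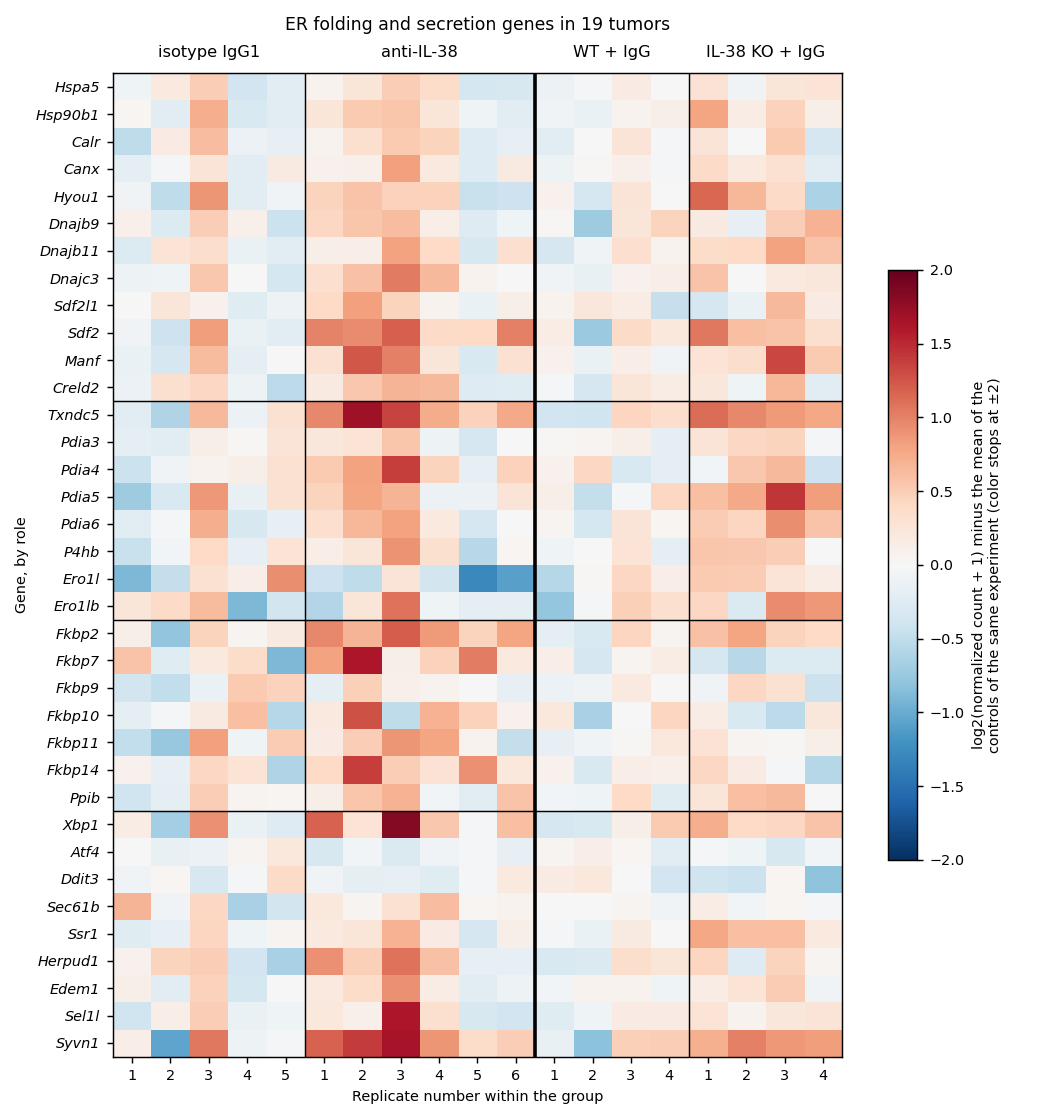
Heatmap of 36 members (rows, by role) in 19 tumors (columns, numbered within each group), as log2(normalized count + 1) minus the mean of the controls of the same experiment, isotype IgG1 or WT + IgG. Isotype IgG1 replicate 3 is red in most rows, as are anti-IL-38 replicates 2 and 3 and IL-38 KO + IgG replicates 1 and 3, while Atf4 and Ddit3 stay pale or blue.

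In the genotype experiment, 29 of the 34 members had a positive log2 difference between IL-38 KO + IgG and WT + IgG, with a median of 0.23 against 0.01 over all 16563 genes tested. In limma 0 members had an adjusted p under 0.05, as had 0.00604% of all genes, which is 1 gene. At an unadjusted p under 0.05, 9 members were higher (6.73% of all genes) and 0 lower (5.4%). They were Ssr1, Pdia6, Pdia5, Syvn1, Dnajb11, Manf, Sdf2, Xbp1 and P4hb. In 6 members every KO tumor lay above every WT tumor (3.66% of all genes), and in 0 members every KO tumor lay below (3.41%). DESeq2 called 2 members higher at an adjusted p of 0.05, Pdia6 and Ssr1 (1.31% of all genes). Without IL-38 KO + IgG replicate 4, the library that stood apart, 15 members were higher at an unadjusted p under 0.05 in limma (8.6% of all genes). Then 30 of the 34 were above 0, with a median of 0.30 against −0.01 over all genes.

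Ssr1, the alpha subunit of the TRAP complex that sits beside the Sec61 channel, had 2083, 1949, 2398 and 2108 normalized counts in the WT + IgG tumors and 3638, 3214, 3231 and 2440 in the IL-38 KO + IgG tumors. The groups were separate, with KO replicate 4 just above the highest WT tumor. The log2 difference was 0.54 ± 0.15 (adjusted p = 0.245 in limma and 0.0213 in DESeq2). Syvn1 had 171, 107, 263 and 268 in WT and 311, 381, 349 and 341 in KO, and the log2 difference of 0.86 ± 0.26 (adjusted p = 0.279 in limma) was close to that under the antibody. Sel1l, Herpud1, Edem1 and Sec61b differed by 0.03 to 0.21.

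Of the 7 disulfide isomerases and oxidases other than Txndc5, all 7 lay above 0 and 3 (P4hb, Pdia5 and Pdia6) had an unadjusted p under 0.05, while 0 passed the adjustment. Pdia6 (P5), which works with Hspa5, had 5434, 4065, 6200 and 5374 normalized counts in WT and 7369, 7018, 9901 and 7765 in KO. The lowest KO tumor exceeded the highest WT tumor, and the log2 difference was 0.61 ± 0.17 (adjusted p = 0.255 in limma and 0.0289 in DESeq2). Pdia5 had 58.8, 38.6, 52.8 and 72.3 in WT and 83.3, 92.7, 149 and 97.3 in KO, again without overlap, with a log2 difference of 0.91 ± 0.26 (adjusted p = 0.259 in limma). P4hb differed by 0.39, and Pdia3, Pdia4, Ero1l and Ero1lb by 0.18 to 0.48 with intervals that included 0.

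Of the chaperones, Dnajb11 (ERdj3), a cochaperone of Hspa5, had 542, 655, 872 and 722 normalized counts in WT and 887, 905, 1204 and 1017 in KO. The separation was narrow, between 872 and 887, and the log2 difference was 0.53 ± 0.17 (adjusted p = 0.286 in limma). Manf, a secreted stress protein that binds Hspa5, had 1521, 1305, 1567 and 1358 in WT and 1726, 1829, 3610 and 2062 in KO, where replicate 3 was the highest tumor, a log2 difference of 0.62. Sdf2 had 761, 413, 903 and 796 in WT and 1432, 1048, 1029 and 862 in KO, which overlapped, with a log2 difference of 0.64. Hspa5 had 17926, 19002, 21716 and 19289 in WT and 23648, 18600, 23007 and 23551 in KO, a log2 difference of 0.19 with an interval of −0.18 to 0.55. Xbp1 had 5022, 5173, 6890 and 9119 in WT and 10491, 8424, 8506 and 9455 in KO, a log2 difference of 0.53.

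The prolyl isomerases other than Fkbp2 split, with 3 of 6 above 0 and 3 below. Fkbp7 had 237, 171, 224 and 238 in WT and 171, 147, 177 and 179 in KO, a log2 difference of −0.36 with an interval of −0.73 to 0.02. Fkbp14 and Fkbp10 stood at −0.01 and −0.12. Atf4 and Ddit3 were again below 0, at −0.13 and −0.40, with intervals that included 0.

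**Figure D3:**
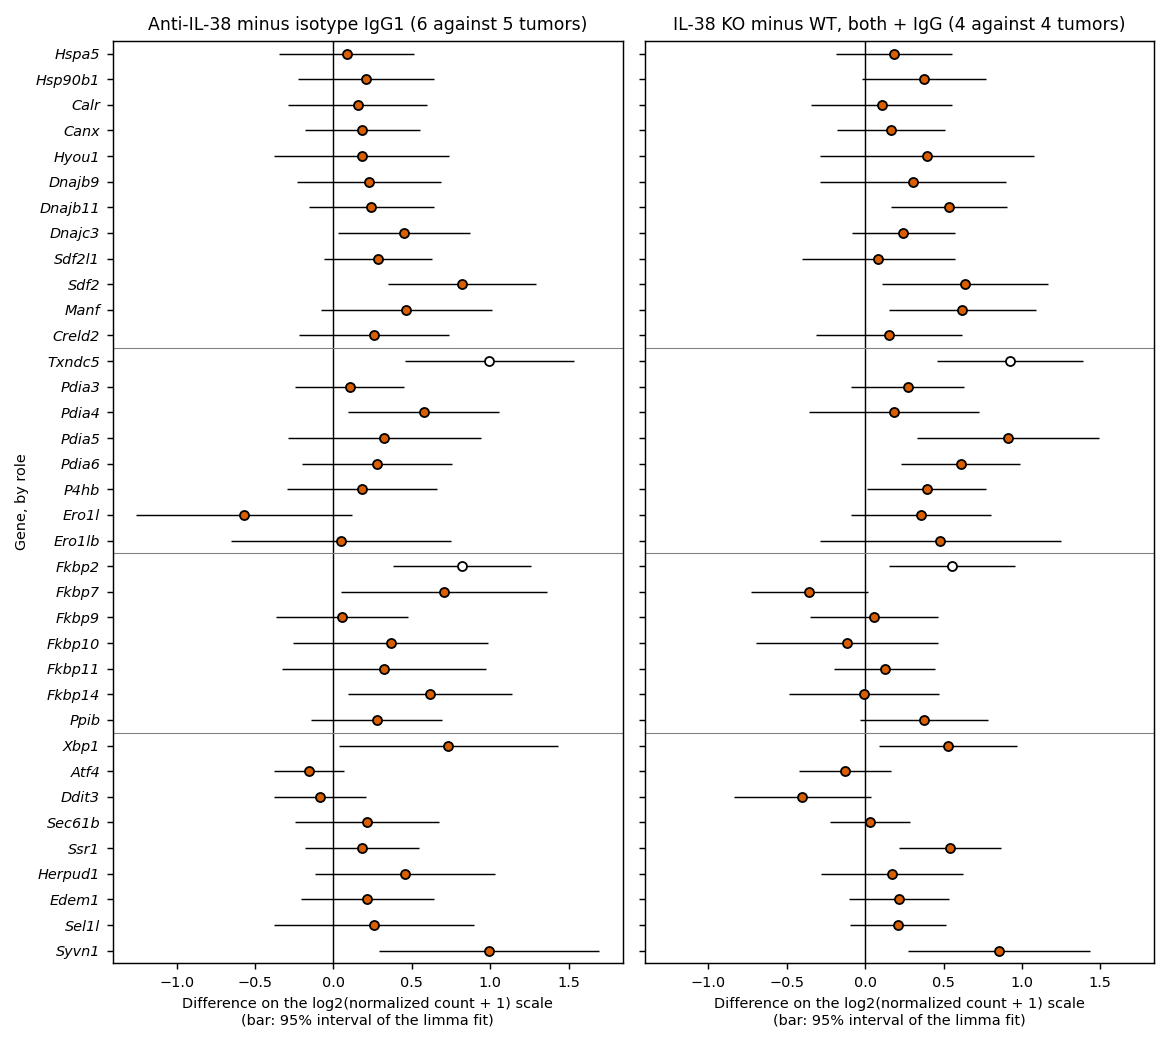
Difference on the log2(normalized count + 1) scale (horizontal axes) of 36 members by role (vertical axis) for anti-IL-38 minus isotype IgG1 (left) and IL-38 KO minus WT (right), with the 95% interval of the limma fit. Open points mark Txndc5 and Fkbp2, which were chosen by these values, and most other points lie to the right of 0, while Atf4 and Ddit3 lie to the left in both panels.

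The antibody and knockout comparisons share no libraries, although their 19 libraries were normalized together. Of the 34 members, 28 were above 0 in both, where 28% of the 15648 genes tested in both were. Another 2 (Atf4 and Ddit3) were below 0 in both, as were 28.3% of all genes, and 4 (Ero1l, Fkbp7, Fkbp10 and Fkbp14) had opposite signs. Sdf2, Syvn1 and Xbp1 had an unadjusted p under 0.05 in both, which is 42.9% of the 7 members of the antibody comparison and 33.3% of the 9 of the knockout comparison. These 3 are 8.82% of the 34 members, and 1.02% of all genes were likewise higher at an unadjusted p under 0.05 in both. A direct test of the difference between the effects, the interaction term in limma, gave 1 member with a larger antibody effect at an unadjusted p under 0.05 (4.24% of all genes), Fkbp7 at 1.06 (adjusted p = 0.586), and 1 with a smaller one (3.43% of all genes), Ero1l at −0.93 (adjusted p = 0.648).

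With both experiments pooled, 10 tumors with IL-38 inhibited against 9 controls, the same 19 libraries gave 0 members past an adjusted p of 0.05 in limma (0% of all genes). At an unadjusted p under 0.05, 11 members were higher (6.42% of all genes) and 0 lower (4.13%). The smallest p-values belonged to Sdf2, with a log2 difference of 0.74 ± 0.17 and an adjusted p of 0.185, and Syvn1, with 0.92 ± 0.24 and 0.219. Xbp1 followed at 0.64 ± 0.22 (adjusted p = 0.347), Manf at 0.55 ± 0.19 (0.353) and Pdia5 at 0.58 ± 0.21 (0.365). DESeq2 called 1 member, Sdf2, with an adjusted p of 0.0307 (0.385% of all genes higher). Without isotype replicate 3, Sdf2 was also called in limma, at 0.83 with an adjusted p of 0.0421 (0.14% of all genes higher).

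The machinery around the members was read from 8 lists with 93 genes, of which limma called 0 at an adjusted p of 0.05 in any comparison. In the knockout, 28 of the 93 were higher at an unadjusted p under 0.05, where 6.73% of all genes were, and 1 was lower, where 5.4% were. They included 7 of 19 genes for the translocon, the signal peptidase and the signal recognition particle, 4 of 9 subunits of the oligosaccharyltransferase, which attaches N-glycans, 5 of 14 genes for glycoprotein folding and ERAD, 3 of 6 stress sensors and their proteases, 4 of 9 further thioredoxin-fold proteins, 3 of 12 for collagen folding and 2 of 14 for export to the Golgi. None of the 10 targets of ATF4 and CHOP was higher, and 1, Nupr1, was lower. Under the antibody, 12 of the 93 were higher at an unadjusted p under 0.05 (5.61% of all genes) and 2 lower (4.91%), with 2 of 19 translocon genes and 0 of 9 oligosaccharyltransferase genes among the former. Of the ATF4 and CHOP targets, 2 were higher there (Nupr1 and Ppp1r15a) and 2 lower (Atf3 and Ddit4), so Nupr1 stood at 0.79 under the antibody and at −0.55 in the knockout.

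Spcs3, a subunit of the signal peptidase that trims entering chains, had 144, 146, 205 and 256 normalized counts in the WT + IgG tumors and 371, 323, 606 and 513 in the IL-38 KO + IgG tumors. All KO tumors exceeded all WT tumors, and the log2 difference was 1.26 (adjusted p = 0.179 in limma). Ssr3, another TRAP subunit, had 2168, 1963, 2786 and 2127 in WT and 3939, 3355, 3711 and 3445 in KO, a log2 difference of 0.69 (adjusted p = 0.210). Stt3b, a catalytic subunit of the oligosaccharyltransferase, had 1461, 1459, 1838 and 1671 in WT and 2297, 2436, 2160 and 2778 in KO, a log2 difference of 0.59 (adjusted p = 0.210). Under the antibody the leading genes were Qsox1, a sulfhydryl oxidase, at 1.13 (adjusted p = 0.376), Sec24c, a cargo adaptor of COPII vesicles, at 0.75 (adjusted p = 0.376), and Erlec1, an ERAD lectin, at 0.48 (adjusted p = 0.420). With the experiments pooled they were Spcs3 at 0.89 (adjusted p = 0.185), Ssr3 at 0.49 (0.251) and Eif2ak3 at 0.55 (0.260).

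Marker genes of the cell types in these tumors were read in each experiment by itself, and limma called 0 of them at an adjusted p of 0.05. Of 8 luminal epithelial genes, all 8 were above 0 under the antibody (Cldn3 and Krt8 at an unadjusted p under 0.05) and 5 in the knockout, where Cdh1 was higher and Krt19 lower at an unadjusted p under 0.05. Their summed normalized counts had medians of 25644 in isotype IgG1, 39394 in anti-IL-38, 31655 in WT + IgG and 37697 in IL-38 KO + IgG tumors. Of 10 fibroblast genes, all 10 were above 0 under the antibody, with a median of 0.55 (Pdgfrb and Thy1 at an unadjusted p under 0.05), and 7 in the knockout, with a median of 0.09 (0 at an unadjusted p under 0.05). The median sums were 31257, 54247, 40407 and 50613 in the same order.

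Of the 7 tested plasma cell genes, all 7 were above 0 under the antibody (Igha at an unadjusted p under 0.05) and 6 in the knockout (Igha and Jchain), with median sums of 296, 556, 675 and 972 and no marker at 0 in any group. Of 8 milk protein genes, 3 were above 0 under the antibody (median −0.31) and all 8 in the knockout (median 0.68). At an unadjusted p under 0.05, Csn2 was lower under the antibody and Wap higher in the knockout. The median sums of the milk list were 109240, 179694, 103680 and 125392. That sum was thus higher under the antibody, although 5 of the 8 genes lay below 0. Of 7 macrophage genes, 2 were above 0 under the antibody, where Cd68 was lower at an unadjusted p under 0.05, and 0 in the knockout, where C1qb and Csf1r were. Their median sums were 33143, 29843, 24224 and 18960. All 5 skeletal muscle genes were above 0 in both experiments, with medians of 0.23 under the antibody and 2.26 in the knockout. Ckm was higher in the knockout at an unadjusted p under 0.05. Of 4 adipocyte genes, 2 were above 0 under the antibody and 0 in the knockout, where the median was −1.13. Adipoq and Cidec were lower in the knockout at an unadjusted p under 0.05. Of 5 cycling genes, 0 were above 0 under the antibody and 5 in the knockout. Ccnb1 and Mki67 were lower under the antibody at an unadjusted p under 0.05. Isotype replicate 5 had a cycling gene sum of 17192.5 where the next isotype tumor had 7522, and the anti-IL-38 tumors had 4996 to 7225. All 4 endothelial genes were above 0 in both. T-cell genes were above 0 in 4 of 4 under the antibody and 1 of 4 in the knockout. Cd3e was lower in the knockout at an unadjusted p under 0.05. The 4 T-cell genes summed to only 4.77 to 148 normalized counts per tumor, so each rests on few reads. The 2 tested B cell genes were below 0 under the antibody and above 0 in the knockout. The part of cell composition in the members' differences was not tested.

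Blocking the γδTCR in IL-38 KO tumors left the members on both sides of 0, with 18 of the 34 above and 16 below and a median log2 difference of 0.00. No member passed an adjusted p of 0.05 in limma (0% of all genes). At an unadjusted p under 0.05, 6 members were higher (12.7% of all genes) and 3 lower (9%). In 4 members every anti-γδTCR tumor lay above every KO + IgG tumor (4.57% of all genes), and in 3 every one lay below (4.98%). DESeq2 called 1 member higher, Sel1l (2.57% of all genes), and 1 lower, Edem1 (3.68%). This comparison shares the 4 KO + IgG libraries with the genotype comparison, and its table was normalized separately, so levels here are lower than those above for the same libraries. Txndc5 had 464, 422, 400 and 382 normalized counts under IgG and 294, 357, 295 and 385 under anti-γδTCR, and Fkbp2 had 308, 362, 289 and 284 against 320, 422, 496 and 468. Their log2 differences were −0.33 and 0.44, so the genes parted here.

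Edem1, a lectin that sends misfolded glycoproteins to ERAD, had 530, 581, 699 and 475 normalized counts under IgG and 394, 358, 320 and 315 under anti-γδTCR. The groups were separate, and the log2 difference was −0.71 ± 0.16 (adjusted p = 0.0657 in limma and 0.00368 in DESeq2). Sec61b, a small subunit of the entry channel, had 1273, 1115, 1210 and 1173 against 1049, 895, 885 and 726, a log2 difference of −0.43 ± 0.14 (adjusted p = 0.100 in limma). Syvn1 had 233, 289, 269 and 267 against 217, 171, 228 and 176, a log2 difference of −0.42 ± 0.16 without overlap. Its partner Sel1l lay on the other side, with 2800, 2453, 2763 and 2881 against 3422, 3453, 3179 and 3822, a log2 difference of 0.35 ± 0.13 (adjusted p = 0.138 in limma and 0.0486 in DESeq2). Fkbp11 had 260, 223, 222 and 241 against 296, 404, 293 and 353, a log2 difference of 0.50 ± 0.15 (adjusted p = 0.0945 in limma). Fkbp10, a collagen prolyl isomerase, had 114, 83.9, 73.5 and 126 against 109, 225, 150 and 268, which overlapped, with a log2 difference of 0.86 ± 0.30 (adjusted p = 0.128 in limma). Herpud1, Atf4 and Ero1lb were the other higher members, at 0.39, 0.32 and 0.79.

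The labels name no batch, but the share of pseudogene reads moved with this contrast. All 4 anti-γδTCR libraries had the raised share and only replicate 4 of KO + IgG did. Without that replicate, limma called 2357 genes at an adjusted p of 0.05, 9.45% of all genes higher and 4.85% lower, of which 0 and 1 were members. The member was Edem1, at −0.79 with an adjusted p of 0.00557. That fit sets only IgG libraries with the low share against only anti-γδTCR libraries with the raised share. The antibody and the kind of library cannot be told apart there. The median of the 34 members moved from 0.00 to −0.10 without replicate 4. Against replicate 4 alone, the only IgG library of this contrast with the raised share, it was 0.25, with 25 members above 0. Edem1, Sec61b and Syvn1 were below replicate 4 in all 4 anti-γδTCR tumors and Sel1l, Fkbp11, Herpud1 and Atf4 above it in all 4. Against that single tumor there is no test. Slc7a11, the cystine transporter, was the pathway gene with the smallest p and an example of the opposite kind, with 129, 98.3, 127 and 15.5 normalized counts under IgG and 5.43 to 15.7 under anti-γδTCR, a log2 difference of −2.68 (adjusted p = 0.0657 in limma). Replicate 4 alone had the level of the anti-γδTCR tumors. Srp14, of the signal recognition particle, differed by 1.16 (adjusted p = 0.0722) and likewise had 2627 in replicate 4 against 868 to 1199 in the other IgG tumors, while P4ha1, a collagen prolyl hydroxylase, differed by 0.78 (adjusted p = 0.0816). Macrophage genes were lower in 5 of 7 and cycling genes in 5 of 5 at an unadjusted p under 0.05 in this contrast, and their part in the members' values was not tested.

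**Figure D4:**
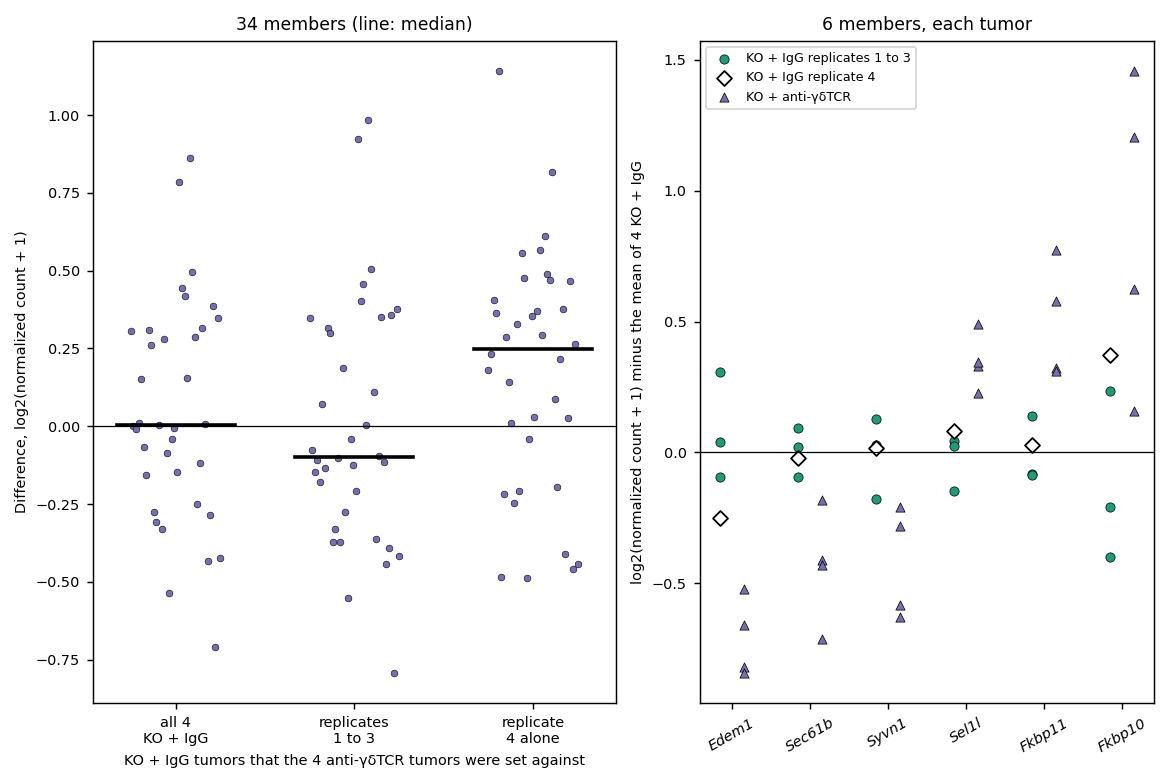
Left, log2 difference (vertical axis) of 34 members between the 4 IL-38 KO + anti-γδTCR tumors and all IL-38 KO + IgG tumors, replicates 1 to 3 or replicate 4 alone, with the median as a line at 0.00, −0.10 and 0.25. Right, 6 members in each tumor relative to the mean of the 4 IL-38 KO + IgG tumors, where Edem1, Sec61b and Syvn1 lie below all IgG tumors, Sel1l and Fkbp11 above them, and Fkbp10 overlaps.

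Members also differed in how they varied together from tumor to tumor, which did not enter their choice. Over 19 tumors, with each group's mean removed, 32 of the other 35 members correlated positively with Hspa5, with a median Pearson r of 0.53. Over all 16351 genes with the same filter, 49.9% did, with a median of 0.00. After adjustment over 107 relations, 9 passed 0.05 in a permutation test within groups, all with an r of at least 0.71, where 0.685% of all genes reached the r of the lowest. They were Herpud1, Dnajc3, Pdia6, Creld2, Hsp90b1, Sel1l, Calr, Ero1lb and Dnajb11. Herpud1, a stress-induced membrane protein of ERAD, had the highest value, with r = 0.85 (permutation p = 0.0003, adjusted 0.0118), Spearman's rho = 0.83 (permutation p = 0.00066, adjusted 0.0174) and r = 0.81 without the 2 tumors farthest from the median of Hspa5, isotype replicate 3 and anti-IL-38 replicate 5. Across the 9 genes r without those tumors was 0.59 to 0.81, and over the 35 members 29 were then positive with a median of 0.36. Sdf2, Syvn1, Txndc5 and Fkbp2, which differed most with IL-38 inhibited, had r of 0.38, 0.49, 0.46 and 0.23 with Hspa5, and 0.07, 0.25, 0.23 and −0.05 without the same 2 tumors. Ddit3 and Atf4 had r of −0.43 and −0.37. None of these 6 passed the adjustment.

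With the mean of the fibroblast list, 19 of 36 members correlated positively, with a median r of 0.03, where 49.7% of all genes did. That median rests on isotype replicate 5 and anti-IL-38 replicate 3, the tumors farthest from the median of the list. Without them 32 of 36 members were positive with a median r of 0.33, against 53.2% of all genes. With all 19 tumors 1 member passed the adjustment, Fkbp10, with r = 0.77 (permutation p = 0.00112, adjusted 0.0150), rho = 0.71 (permutation p = 0.0022, adjusted 0.0262) and r = 0.64 without the 2 farthest tumors. With the mean of the plasma cell list, 14 of 36 were positive, with a median r of −0.12, which turned to 0.07 when group means were left in. Without the 2 farthest tumors, IL-38 KO + IgG replicate 4 and anti-IL-38 replicate 6, 10 were positive with a median of −0.14. Fkbp7 alone passed for r, at 0.60 (permutation p = 0.00314, adjusted 0.0305), but not for rho, at 0.58 (permutation p = 0.0189, adjusted 0.123), and r was 0.68 without the 2 farthest tumors. Fkbp10 had a similar r of 0.61 with the plasma cell list (permutation p = 0.00591, adjusted 0.0527). Fkbp7 had an r of 0.665 with the fibroblast list (permutation p = 0.0163, adjusted 0.109). Neither gene thus went with 1 list only. Libraries share their depth and normalization in all of these relations.

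Several members carry a known ER stress element in their promoters. The ER stress response element, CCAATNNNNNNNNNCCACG, and its second form, ATTGGNCCACG, are bound by ATF6 and XBP1. RefSeq promoters of the build GRCm38.p6, from 250 bases before the start site to 50 after it, were found for 31 of 36 members and for 17492 genes in all, and were searched on both strands. The first element was in 8 members, 25.8% of those with a promoter, against 0.166% of all genes, and the members were Hspa5, Hsp90b1, Calr, Canx, Dnajc3, Creld2, Pdia6 and Syvn1. The second was in Dnajb11 and Herpud1, 6.45% against 0.0629%. ACGTGG, the core recognized by XBP1, was in 12 members, 38.7% against 10.3%, and its reverse complement can overlap either element. The sequences below show the element in the most abundant chaperone, in the members most closely tied to it and in Syvn1, with the 5-base ends of the element in capitals. All lie on the plus strand of the genome.
Hspa5, chr2:34771989-34772078: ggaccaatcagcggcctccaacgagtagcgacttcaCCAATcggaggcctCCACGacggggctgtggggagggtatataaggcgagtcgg
Pdia6, chr12:17266455-17266544: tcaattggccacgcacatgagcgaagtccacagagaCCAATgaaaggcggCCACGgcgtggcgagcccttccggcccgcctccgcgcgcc
Dnajc3, chr14:118937791-118937880: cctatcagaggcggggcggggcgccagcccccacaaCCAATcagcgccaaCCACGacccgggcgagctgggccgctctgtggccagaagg
Creld2, chr15:88819484-88819573: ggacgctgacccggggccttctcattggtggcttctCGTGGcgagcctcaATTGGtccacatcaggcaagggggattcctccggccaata
Syvn1, chr19:6046496-6046575: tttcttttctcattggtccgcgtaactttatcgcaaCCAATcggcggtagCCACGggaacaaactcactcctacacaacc
Herpud1, chr8:94386337-94386426: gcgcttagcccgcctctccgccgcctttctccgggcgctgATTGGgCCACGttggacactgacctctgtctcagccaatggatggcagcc

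In Hspa5, Pdia6, Dnajc3 and Syvn1 the element reads forward and begins 65, 98, 105 and 44 bases before the start site. In Creld2 it reads on the other strand, and in Herpud1 the second form begins 52 bases before the start. The 9 members with either element, other than Hspa5, had a median r of 0.78 with Hspa5 across tumors, ranging from 0.49 to 0.85, and 7 of them passed the adjusted correlation test. The 21 members with a promoter that holds neither element had a median r of 0.39, ranging from −0.43 to 0.77, and 1 of them passed. Txndc5, Fkbp2, Sdf2 and Xbp1 were among the latter, where the letters of either element are not in the windows searched. The XBP1 core ACGTGG was found for Txndc5 but not for Fkbp2, Sdf2 or Xbp1. These are descriptions of known sequence beside the correlations, and no test was made between the sets.

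Counting limits apply to 13 members whose annotated exons overlap another gene in GENCODE M21: Hsp90b1, Dnajb9, Sdf2, Manf, Txndc5, Pdia3, Pdia4, Pdia6, Fkbp10, Fkbp14, Ppib, Ddit3 and Syvn1. Sdf2 overlaps Supt6 and Syvn1 overlaps Mrpl49 on the opposite strand, Txndc5 overlaps Bmp6, and Manf overlaps Rbm15b on its own strand. Whether reads were counted by strand is not given in the sources used here, so reads of these pairs may be shared. Calr has 1 annotated gene named as its pseudogene.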

How the data were processed

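RNA of dissociated PyMT tumors was made into QuantSeq 3′ mRNA libraries (single reads of 75 cycles), and per the labels the authors aligned and counted reads with STAR and HTSeq on GRCm39 and normalized with DESeq2, whose versions are not stated. Values were deposited as normalized counts per gene, a signal of reads divided by a size factor per library, in a table of 19 libraries and another of 8 that were normalized separately. The 4 IL-38 KO + IgG libraries are in both, with identical reads. Dividing each value by that of 1 read gave whole reads in 100% of values within 0.0001%, also for WT + IgG replicate 1, where 1 read is worth 0.996. Of 47643 identifiers, 47224 had a gene symbol.

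Groups and comparisons follow the GEO labels. No sample is unassigned and no deposited column was left out. Nothing in the labels links same-numbered animals. The main test was limma (3.58.1, R 4.3.3, empirical Bayes with trend, two-sided) on log2(normalized count + 1) over genes with a mean of at least 5, with Benjamini-Hochberg adjustment over all genes tested. The replicates carry different numbers in the labels and were read as separate tumors, and p-values measure the spread between them. The deposited column of anti-γδTCR replicate 3, the library with the lowest depth, carries the mark "rep", whose meaning is not given. edgeR (4.0.16) and DESeq2 (1.42.0) were run on the recovered reads as alternatives, with other pseudocounts, filters, scalings, a replicate block and each library left out in turn. No pair of libraries within the same group (43 pairs) agreed within sampling noise, and pairs across groups were not checked. The limma fit was tested on simulated data. Correlations used 100000 permutations within groups. All 36 members are named, with full statistics for Txndc5, Fkbp2 and the 5 others with the smallest p per comparison, and other genes were named after their values were seen. The members and lists were chosen with earlier results of these data known. Protein sequences were not used here. Promoter windows are RefSeq, GRCm38.p6, a build other than that of the counts, and served for sequence only. Intervals and floors cover counting error or the fit only.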

Additional observations from a re-analysis of the deposited data

Results flagged for a closer look

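In 14 of 180 checks of a member in a group of 4 to 6 tumors, the most extreme tumor lay farther from its neighbor than Dixon's 95% value allows, where chance gives about 1 in 20 checks. Values are normalized counts. In the isotype IgG1 group, replicate 3 was the high tumor for Hsp90b1 (16960, next 10480), Hyou1 (942.6, next 485.1), Sdf2 (1074, next 572.1), Manf (2986, next 1928) and Pdia6 (9758, next 5811). In the anti-IL-38 group, replicate 3 was the high tumor for Canx (13219, next 8547), Ero1lb (183.6, next 101.9) and Sel1l (11780, next 4784), and replicate 2 for Fkbp9 (1271, next 978.3). In the WT + IgG group, replicate 2 was the low tumor for Fkbp14 (170.6, next 224.1). In the IL-38 KO + IgG group, the low tumors were replicate 2 for Hspa5 (18600, next 23007), replicate 4 for P4hb (6579, next 9235) and replicate 3 for Atf4 (2020, next 2393). In the IL-38 KO + anti-γδTCR group, replicate 1 was the high tumor for Calr (14263, next 9913).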

How the results depend on the processing

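Under the alternatives, 582 values of the named members kept their direction and, where tested, their side of an adjusted p of 0.05, and 7 came to pass it. These 7 were Ssr1 and Pdia6 for the knockout, Sdf2 for the pooled comparison and Edem1 and Sel1l for the γδTCR antibody in DESeq2, Sdf2 without isotype replicate 3 and Edem1 without KO + IgG replicate 4. DESeq2 called 75 genes for the antibody, 298 for the knockout, 70 for the pooled comparison, 1030 for the γδTCR antibody and 10 for the difference of effects, where limma called 0, 1, 0, 0 and 1, and among the 34 members it called 0, 2, 1 and 2 in the first 4. It added 1 member lower in the pooled comparison at an unadjusted p. edgeR called 0 genes for the knockout and 1 for the pooled comparison and gave 3 members higher at an unadjusted p under the γδTCR antibody. Experiment as a term gave 1 gene in the pooled comparison. Quantile normalization gave 1 member lower in the knockout and 2 higher and 5 lower under the γδTCR antibody. Without removing group means the median r with the plasma cell list was 0.0727.

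Leaving out 1 library at a time gave 0 to 6 genes for the antibody, 0 to 7 for the knockout, 0 to 23 for the pooled comparison (23 without isotype replicate 3) and 0 to 2357 for the γδTCR antibody (2357 without KO + IgG replicate 4). Members called went from 0 to 1 in the last 2. Members higher at an unadjusted p ranged from 3 to 10, 6 to 15 and 2 to 6 for the antibody, the knockout and the γδTCR antibody, and members lower from 0 to 1 for the antibody, the knockout and the pooled comparison and from 2 to 5 for the γδTCR antibody.

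Same-numbered tumors deviated together little if at all (correlations −0.17 to 0.07). In the knockout comparison the best match of replicates 2 and 4 had the same number, with correlations of 0.07 and 0.06. Low correlations cannot exclude a pairing, and none was assumed. With the number as a replicate block, 1 gene was called for the antibody and 0 for the knockout, where 1 member was lower at an unadjusted p, and no member was called. The cause of these changes was not tested. Depth limits the low members, since Ero1lb had as few as 29 reads in a library.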
